A study of Mus musculus with 6 samples.

Results

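The regulators of mRNA decay that act in T cell activation were examined in Tregs with and without Zfp335. These were 9 genes chosen by symbol, out of the 32285 rows of the gene table: the tristetraprolin family (Zfp36, Zfp36l1 and Zfp36l2), the Regnase family (Zc3h12a, Zc3h12c and Zc3h12d), the Roquin family (Rc3h1 and Rc3h2) and Btg1. All 9 were found and all 9 passed the filter on low counts. CD4+CD25+ Tregs had been sorted from the spleens of C57BL/6 mice and profiled by bulk RNA-Seq, with 3 WT and 3 KO libraries. KO mice carried ERCre and floxed Zfp335 (ERCre Zfp335fl/fl). In ERCre, the Cre recombinase works only when tamoxifen binds its estrogen receptor portion. The methods of the study name no restriction of ERCre to Tregs, and deletion in other cells was not measured in these libraries. The labels name the controls wild-type littermates, whereas the methods of the study describe ERCre controls, and give tamoxifen to both groups from 6 weeks of age in 3 injections of a 10 mg/mL solution, with collection on day 7. The labels do not mention tamoxifen. The labels do not say whether each library came from 1 animal or from a pool.

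Proteins of these families end the life of inflammatory mRNAs. Tristetraprolin and its relatives bind AU-rich elements in 3′ untranslated regions (UTRs) and recruit the CCR4-NOT complex, which removes the poly(A) tail. Roquins bind short stem-loops and also recruit this complex, while Regnase-1, the product of Zc3h12a, is itself an endonuclease that cuts similar stem-loops. Btg1 and its relatives Btg2, Tob1 and Tob2 are adaptors that bring CCR4-NOT to mRNAs, and Btg1 and Btg2 are known for keeping T cells quiescent. In activated T cells the protease Malt1 cleaves Regnase-1 and Roquins, and the kinase Mapkapk2 inactivates tristetraprolin by phosphorylation.

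The promoters of the 2 genes that rose most (Zc3h12a and Zfp36l1) are shown beside that of Zfp36, the founding member, which did not pass the test. Each is 300 bases long and includes the start of the gene in RefSeq's annotation of GRCm38.p6. All are read 5′ to 3′, and capitals mark the sites named afterwards.
Zc3h12a, chr4:125127832-125128131, minus strand: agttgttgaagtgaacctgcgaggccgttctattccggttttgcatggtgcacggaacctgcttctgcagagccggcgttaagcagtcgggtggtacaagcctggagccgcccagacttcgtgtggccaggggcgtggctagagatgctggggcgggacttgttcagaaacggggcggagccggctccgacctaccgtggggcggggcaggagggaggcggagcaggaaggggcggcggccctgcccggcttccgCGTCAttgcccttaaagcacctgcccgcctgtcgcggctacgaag
Zfp36l1, chr12:80112964-80113263, minus strand: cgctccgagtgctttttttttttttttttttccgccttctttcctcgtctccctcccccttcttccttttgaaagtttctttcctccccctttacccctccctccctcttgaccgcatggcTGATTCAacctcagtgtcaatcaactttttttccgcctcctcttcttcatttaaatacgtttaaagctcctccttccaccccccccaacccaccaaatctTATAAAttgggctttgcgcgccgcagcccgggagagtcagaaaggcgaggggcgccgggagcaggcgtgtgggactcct
Zfp36, chr7:28379179-28379478, minus strand: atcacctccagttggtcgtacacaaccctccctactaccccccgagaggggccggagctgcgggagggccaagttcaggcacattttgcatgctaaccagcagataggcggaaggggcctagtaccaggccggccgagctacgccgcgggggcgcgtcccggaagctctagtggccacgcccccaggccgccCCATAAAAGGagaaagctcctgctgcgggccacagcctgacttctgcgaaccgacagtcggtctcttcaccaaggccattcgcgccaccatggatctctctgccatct
The Zc3h12a promoter has no TATAAA and its only capitals are CGTCA, a part of the cAMP response element, just after the start. It also holds 5 GC boxes (GGGCGG, in 35.7% of promoters), left in lower case. The letters TGACG or CGTCA occur in 20.8% of all 32851 promoters of this length. The Zfp36l1 promoter holds TATAAA (sense strand only, in 8.32% of promoters) and the AP-1 letters TGANTCA (7.81%). The Zfp36 promoter holds a CArG box (1.63%), the element bound by serum response factor. Promoters were matched for 8 of the 9 genes, without Zfp36l2. Among these the CArG box was found in that of Zfp36 only, and the NF-kB site (4.51% of promoters) in none. Motifs were searched on both strands unless stated. These matches describe letters and not binding.

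The 3 tristetraprolin family genes among the 9 carry the heptamer TATTTAT, the core to which their own proteins bind, in their 3′ UTR. Each has 3 copies in its longest annotated 3′ UTR (GENCODE M21, GRCm38). One site of each is shown with its GRCm38 position, with the heptamer in capitals.
Zfp36, chr7:28376952-28376978, minus strand: atgacgacttTATTTATtgtattaaga
Zfp36l1, chr12:80108168-80108194, minus strand: actgttggatTATTTATtttagaaatt
Zfp36l2, chr17:84184915-84184941, minus strand: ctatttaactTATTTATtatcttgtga
The heptamer was also found in Zc3h12c, Rc3h1 and Rc3h2, so that 6 of the 9 genes hold it, against 28.9% of the 14331 tested genes with a 3′ UTR. Zc3h12a, Zc3h12d and Btg1 have none. Counts of a short motif grow with UTR length, and the median length was 2327 bases for the 9 genes and 1096 bases for all genes tested.

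Deletion of Zfp335 is seen in the counts: Zfp335 was 124.4, 121 and 115 CPM in WT replicates 1, 2 and 3 and 15.0, 14.3 and 15.1 CPM in KO replicates 1, 2 and 3. The libraries held 133283969 to 209041812 counts. CPM are counts scaled to a common library size with TMM factors. Xist, the RNA that silences an X chromosome in females, was at most 0.424 CPM in WT and at least 124 CPM in KO, and Y-linked Ddx3y was counted in all 6 libraries (103 CPM in WT and 78.7 CPM in KO on average). Y-linked Uty (17.4 CPM in WT and 11.9 CPM in KO) and Kdm5d (43.5 and 36.0 CPM) were also lower in KO on average. Y-linked Eif2s3y was not (46.6 CPM in WT and 46.9 CPM in KO). Differences of genotype and of the sex of the mice thus cannot be told apart in these libraries. The Treg genes Foxp3, Il2ra, Ctla4, Ikzf2, Tnfrsf18, Cd4 and Cd3e summed to 3575 to 3622 CPM in WT and 3669 to 3724 CPM in KO. By edgeR's test Ctla4 and Tnfrsf18 (0.12, adjusted p = 0.0434) were higher, and Il2ra and Foxp3 (-0.11, adjusted p = 0.0163), the defining Treg factor, were lower. Ctla4 had the largest change of these in CPM, from 410.3 ± 9.03 to 645 ± 8.93 CPM, and Foxp3 was 1154, 1119.5 and 1134 CPM in WT replicates 1, 2 and 3 and 1062, 1047 and 1046 CPM in KO replicates 1, 2 and 3. Markers of other cells were few and mostly lower in KO. Over all genes tested, 12.1% were lower and 12.0% higher by edgeR's test. B cell markers summed to 57.0 to 61.3 CPM in WT and 24.7 to 26.6 CPM in KO, and 7 of 7 fell. Neutrophil markers (18.3 to 24.8 CPM in WT and 1.28 to 1.96 CPM in KO, 7 of 7 lower) and red cell markers (37.0 to 43.8 CPM in WT and 1.92 to 2.51 CPM in KO, 6 of 7 lower) moved the same way. Monocyte and macrophage markers summed to 45.4 to 49.3 CPM in WT and 32.7 to 35.1 CPM in KO, with 2 of 7 lower and 1 higher. Dendritic cell markers fell in 3 of 5, with sums of 5.85 to 6.76 CPM in WT and 3.66 to 4.09 CPM in KO. Markers of CD8 T and NK cells fell in 2 of 6, with sums of 27.1 to 27.9 CPM in WT and 23.4 to 25.4 CPM in KO. Of 7 markers of activated conventional T cells, 2 were higher, with sums of 66.7 to 68.4 CPM in WT and 77.2 to 78.9 CPM in KO. The part of these cells in the results that follow was not tested, and in bulk RNA fewer cells of a type and less RNA per cell cannot be told apart.

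Of the 9 decay regulators, 4 were higher in KO at an adjusted p under 0.05 and 0 were lower (edgeR's quasi-likelihood test, Benjamini-Hochberg adjustment over all 17307 genes tested). Over all genes tested, 12.0% were higher and 12.1% lower at this threshold. The genes that rose were Zc3h12a, Zfp36l1, Btg1 and Rc3h1, 1 from each of the families. With the cutoffs of the study (1.5-fold, P under 0.05 and adjusted P under 0.1), which 2.58% of genes passed upward and 4.37% downward, Zc3h12a alone was called. Every KO library lay above every WT library for the same 4 genes and below for Rc3h2, against 19.3% and 19.1% of all genes tested. The median log2 fold change of the 9 genes was 0.087, against -0.0042 over all genes.

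**Figure D1:**
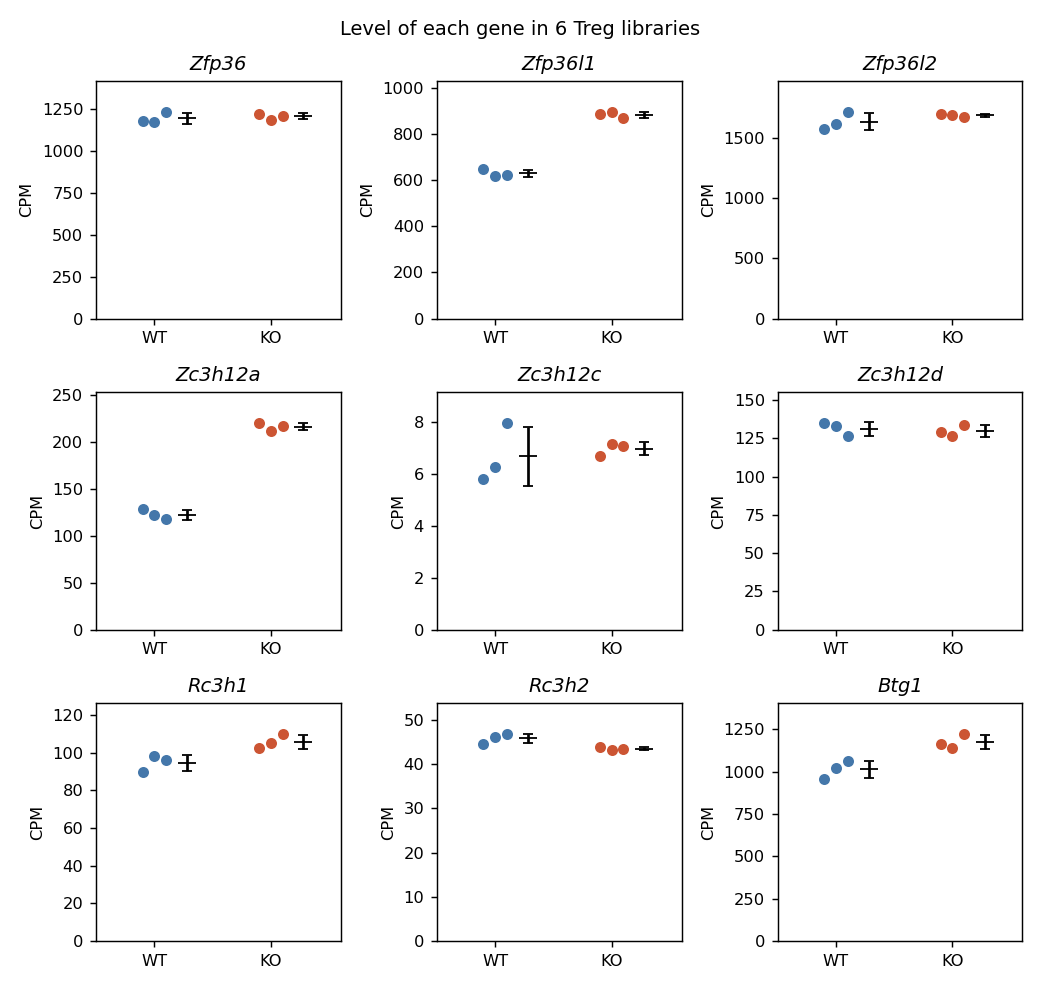
Level of each of the 9 genes in CPM on a linear axis from 0, with 1 point per library (WT blue, KO orange) and the mean ± SD of 3 libraries in black. The KO points of Zfp36l1 (869.6 to 895.5 CPM) and Zc3h12a (212 to 219.7 CPM) stand clear of the WT points.

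Zc3h12a, which encodes Regnase-1, showed the largest change of the 9 genes. It was 128, 122 and 118 CPM in WT replicates 1, 2 and 3 and 219.7, 212 and 216.6 CPM in KO replicates 1, 2 and 3. The KO libraries were close to each other and all far above WT, with means that went from 122.5 ± 5.28 to 216 ± 3.95 CPM (SD, n = 3 in each group). The log2 fold change, given throughout as KO minus WT with its standard error (SE), was 0.82 (SE 0.037, adjusted p = 5.55e-09 by edgeR), or 1.76-fold. Zc3h12a lies on chromosome 4 from 125118423 to 125127840, minus strand, of GRCm38, and no other annotated exon overlaps its exons. By size of increase it ranked 618 of the 17307 genes. Under the 17 alternatives its log2 fold change stayed between 0.79 and 0.85 and past the threshold in each.

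Its relatives did not pass the test. Zc3h12d (Regnase-4), also expressed in lymphocytes, was 135, 133 and 126 CPM in WT replicates 1, 2 and 3 and 129, 126 and 134 CPM in KO replicates 1, 2 and 3. The groups overlapped, and the log2 fold change was -0.018 (95% interval -0.099 to 0.062, edgeR adjusted p = 0.779). Zc3h12c (Regnase-3), which is known from myeloid cells, was scarce, at 5.83, 6.27 and 7.97 CPM in WT replicates 1, 2 and 3 and 6.69, 7.18 and 7.11 CPM in KO replicates 1, 2 and 3. WT replicate 3 was the highest of the 6 libraries, and the log2 fold change of 0.087 (95% interval -0.14 to 0.31, edgeR adjusted p = 0.603) leaves a change of either sign possible. Zc3h12d lies on chromosome 10 from 7832470 to 7870396, plus strand, and Zc3h12c on chromosome 9 from 52111344 to 52168572, minus strand. In WT the Regnase family's counts were split almost evenly between Zc3h12a (46.7 to 47.7% of the family's CPM) and Zc3h12d (50.1 to 50.9%). In KO, Zc3h12a made up 60.6 to 61.8%, while the family's summed level went from 252 to 269 CPM to 345 to 357 CPM. These shares are of CPM, not corrected for length. Per kb of annotated exon, Zc3h12a was above Zc3h12d in WT too (means of 44.5 and 32.1 CPM per kb).

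Zfp36l1 was the one tristetraprolin family gene that rose. It was 648, 619.6 and 624 CPM in WT replicates 1, 2 and 3 and 887, 895.5 and 869.6 CPM in KO replicates 1, 2 and 3. No WT library came near the KO libraries, and the mean went from 631 ± 15.3 to 884 ± 13.2 CPM (SD, n = 3 in each group). The log2 fold change was 0.49 (SE 0.032, adjusted p = 1.65e-07 by edgeR), or 1.40-fold, and it stayed between 0.46 and 0.51 and past the threshold in all 17 alternatives. Zfp36l1 lies on chromosome 12 from 80107754 to 80113013, minus strand. On the other strand the noncoding gene Gm26669 covers 55.9% of its exon bases. Of the 50-base stretches of Zfp36l1 transcripts, 54.4% are found, on either strand, in transcripts of Gm26669 or of Zfp36l1-ps. Whether counting used strand is not given in the sources used here, so reads of Gm26669 and of Zfp36l1 cannot be told apart. The part of Zfp36l1-ps in the counts was not tested.

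Zfp36, which encodes tristetraprolin, was 1179, 1170.5 and 1231 CPM in WT replicates 1, 2 and 3 and 1222, 1185.5 and 1209 CPM in KO replicates 1, 2 and 3. These ranges overlapped, and the log2 fold change was 0.014 (95% interval -0.055 to 0.084, edgeR adjusted p = 0.800), so a change larger than about 0.084 on the log2 scale lay outside the interval. Its sign was negative when libraries were scaled by size only. Zfp36l2, the most abundant of the 3, was 1575, 1615 and 1716 CPM in WT replicates 1, 2 and 3 and 1699, 1694 and 1675 CPM in KO replicates 1, 2 and 3. Here the KO libraries were nearly equal to each other and within the WT range, with a log2 fold change of 0.047 (95% interval -0.030 to 0.12, edgeR adjusted p = 0.391). It was 0.019 without WT replicate 1 and 0.084 without WT replicate 3 (edgeR adjusted p = 0.694 and 0.0587). Zfp36 lies on chromosome 7 from 28376784 to 28380253, minus strand, where the opposite-strand gene Gm44710 covers 3.60% of its exon bases, and Zfp36l2 on chromosome 17 from 84183931 to 84187947, minus strand. Zfp36l1 made up 17.5 to 19.0% of the family's CPM in WT and 23.2 to 23.7% in KO. The family's sum was 3402 to 3571 CPM in WT and 3753.5 to 3808 CPM in KO.

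Of the Roquin genes, Rc3h1 rose by a small amount and Rc3h2 did not pass the test. Rc3h1 (Roquin-1) was 90.0, 98.2 and 96.1 CPM in WT replicates 1, 2 and 3 and 102, 105 and 109.8 CPM in KO replicates 1, 2 and 3. All KO libraries were above WT, though the lowest KO library exceeded the highest WT library only narrowly. The log2 fold change was 0.16 (SE 0.042, adjusted p = 0.0142 by edgeR). It was no longer past the threshold without KO replicate 2 (0.16, edgeR adjusted p = 0.0521) or without KO replicate 3 (0.13, edgeR adjusted p = 0.0816) and stayed past it without any other single library. Rc3h2 (Roquin-2) was 44.7, 46.1 and 46.8 CPM in WT replicates 1, 2 and 3 and 43.9, 43.1 and 43.5 CPM in KO replicates 1, 2 and 3. Its KO libraries were all slightly below WT, but the log2 fold change of -0.074 (95% interval -0.16 to 0.011, edgeR adjusted p = 0.205) had an interval that reached 0. Rc3h1 lies on chromosome 1 from 160906418 to 160974978, plus strand, and Rc3h2 on chromosome 2 from 37370069 to 37422903, minus strand.

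Btg1 was 959, 1024 and 1060.1 CPM in WT replicates 1, 2 and 3 and 1162, 1142.5 and 1221 CPM in KO replicates 1, 2 and 3. The groups did not overlap, and the mean went from 1014.5 ± 51.3 to 1175 ± 40.7 CPM (SD, n = 3 in each group). This log2 difference of 0.21 (SE 0.041, adjusted p = 0.00196 by edgeR) was past the threshold in all 17 alternatives. Btg1 lies on chromosome 10 from 96617006 to 96622809, plus strand. Transcripts of another gene, Gm14519, share part of its sequence, and 2.49% of the 50-base stretches of Btg1 transcripts are found in transcripts of other genes.

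Of its protein family, 4 other adaptors were listed (Btg2, Btg3, Tob1 and Tob2). All 4 were higher in KO, against 12.0% of all genes tested. Tob2 was 289, 266 and 256 CPM in WT replicates 1, 2 and 3 and 473, 478 and 466 CPM in KO replicates 1, 2 and 3. All its KO libraries were far above WT, and its log2 fold change was 0.81 (SE 0.042, adjusted p = 2.14e-08 by edgeR). Btg2, the closest relative of Btg1, was 252, 241 and 252 CPM in WT replicates 1, 2 and 3 and 294, 291 and 297 CPM in KO replicates 1, 2 and 3, a smaller rise of 0.24 (SE 0.032, adjusted p = 1.11e-04 by edgeR). Tob1, known as a brake on T cell proliferation, went from 97.9 ± 7.32 to 129 ± 4.23 CPM, with a difference of 0.40 (SE 0.049, adjusted p = 5.28e-05 by edgeR) on the log2 scale. Btg3 went from 10.8 ± 0.749 to 15.5 ± 0.475 CPM (SD, n = 3 in each group for both), with a difference of 0.52 (SE 0.066, adjusted p = 6.62e-05 by edgeR) on the same scale. All 4 were past the threshold in each of the 17 alternatives.

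**Figure D2:**
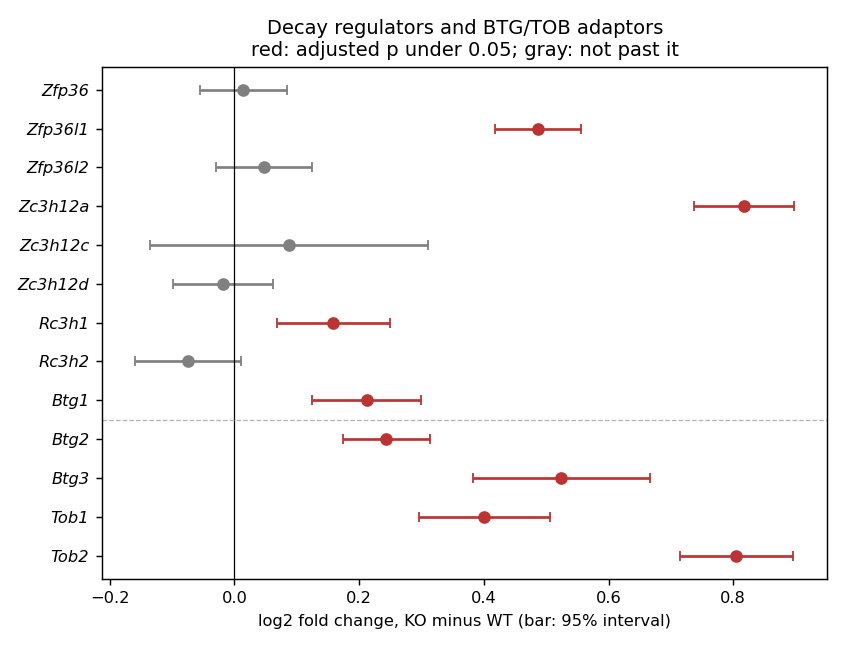
Log2 fold change (KO minus WT) with its 95% interval for the 9 decay regulators, above the dashed line, and the 4 further BTG/TOB adaptors. Red points passed an adjusted p under 0.05, and Zc3h12a (0.82) and Tob2 (0.81) lie farthest to the right.

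The balance between paralogues was compared within each library, where scaling cancels. The log2 ratio of Zc3h12a to Zc3h12d was -0.074, -0.13 and -0.10 in the WT libraries and 0.77, 0.75 and 0.70 in the KO libraries. In WT the 2 genes were thus about equal in CPM, and in KO Zc3h12a led in every library. The log2 ratio of Zfp36 to Zfp36l1 was 0.86, 0.92 and 0.98 in the WT libraries and 0.46, 0.40 and 0.48 in the KO libraries, so that the lead of Zfp36 narrowed. The log2 ratio of Zfp36 to Zfp36l2 was -0.42, -0.46 and -0.48 in the WT libraries and -0.48, -0.52 and -0.47 in the KO libraries, and these ranges overlapped. For Rc3h1 to Rc3h2 it was 1.01, 1.09 and 1.04 in the WT libraries and 1.22, 1.28 and 1.33 in the KO libraries. These ratios are of CPM, not corrected for length, and are a description without a test.

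**Figure D3:**
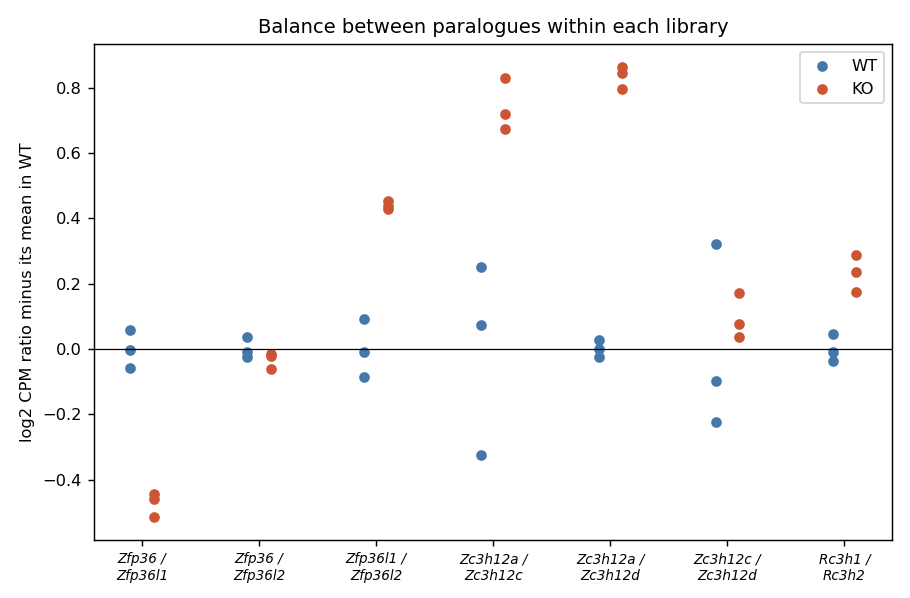
Log2 ratio of CPM between 2 genes of a family in each library, minus its mean in WT, for 7 pairs (WT blue, KO orange, 1 point per library). Pairs that hold Zc3h12a or Zfp36l1 separate by group, as does Rc3h1 to Rc3h2. In KO, Zc3h12a to Zc3h12d is at 0.84 on average. Zfp36 to Zfp36l2 and Zc3h12c to Zc3h12d overlap.

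Per length of annotated exon, the tristetraprolin family and Btg1 were far more abundant than the rest. In WT, Zfp36l2 was 463 ± 20.6 CPM per kb, followed by Zfp36 (344 ± 9.46 CPM per kb), Zfp36l1 (211 ± 5.12) and Btg1 (192 ± 9.73), each SD with n = 3. The closest neighbors were Zfp36l1 and Btg1, where the lowest WT library of Zfp36l1 (207 CPM per kb) was just above the highest of Btg1 (201). Zc3h12a (44.5 ± 1.92 CPM per kb) and Zc3h12d (32.1 ± 1.10) came next, and Rc3h1 (8.61 ± 0.389), Rc3h2 (5.11 ± 0.119) and Zc3h12c (0.977 ± 0.166) were lowest. In KO the order was the same, although Zc3h12a moved up to 78.4 ± 1.43 CPM per kb. Lengths are those of all exons of GENCODE's basic set, which can overstate the length of the transcripts in use.

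Of 31 genes of deadenylation, decapping and nonsense-mediated decay, 2 were higher and 6 lower in KO. Their median log2 fold change was -0.037. The shares over all genes tested were 12.0% higher and 12.1% lower. Of 11 CCR4-NOT subunits, 0 were higher and 4 were lower. Cnot8, one of the deadenylases that BTG proteins bind, went from 64.4 ± 2.70 to 53.7 ± 1.62 CPM with a difference of -0.26 (SE 0.043, adjusted p = 5.78e-04 by edgeR). Its paralogue Cnot7, named after its values were seen, did not pass the test, at 0.063 (edgeR adjusted p = 0.426). The ubiquitin ligase subunit Cnot4 (-0.33, adjusted p = 0.00157), the subunit Cnot3 (-0.19, adjusted p = 0.00200) and the decapping enzyme Dcp2 (-0.23, adjusted p = 0.00234) were also lower by edgeR's test. Higher were the endonuclease of nonsense-mediated decay Smg6 (0.18, adjusted p = 0.00358) and the decapping activator Patl1 (0.12, adjusted p = 0.0172). Without WT replicate 1 the counts were 5 higher and 13 lower, 18 in all against 8.

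Among genes that act upstream, 3 of 12 were higher and 4 lower, against 12.0% and 12.1% of all genes tested. The adjusted p of edgeR is given for each gene named. In the complex that activates the protease Malt1, Bcl10 (0.30, adjusted p = 3.38e-05) rose, while Malt1 itself was at 0.088 (adjusted p = 0.0646). Mapkapk2 (0.22, adjusted p = 2.28e-04), whose kinase restrains tristetraprolin, was higher at 181 ± 0.876 CPM in WT and 210.2 ± 3.56 CPM in KO. Of the Ywha genes, whose proteins bind phosphorylated tristetraprolin, Ywhaz (0.31, adjusted p = 1.81e-05) rose, while Ywhag (-0.26, adjusted p = 2.32e-04), Ywhab (-0.14, adjusted p = 0.00547) and Ywhaq (-0.11, adjusted p = 0.0437) fell. The 4 lower calls became 2 without WT replicate 2 and without any 1 of the KO replicates.

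Of 14 other proteins that bind such elements or stabilize mRNAs, 2 were higher and 2 lower, and the median was -0.051. In all genes tested the shares were 12.0% higher and 12.1% lower. Arid5a, which stabilizes mRNAs that Regnase-1 destroys, had a log2 fold change of 0.24 (SE 0.035, adjusted p = 2.33e-04 by edgeR). Nufip2, a cofactor of Roquin, was at 0.15 (SE 0.047, adjusted p = 0.0287 by edgeR). By the same test Pcbp1 (-0.18, adjusted p = 0.00196) and Celf1 (-0.13, adjusted p = 0.0129) fell. This list also held Zfp36l3 and Zc3h12b, further genes of the tristetraprolin and Regnase families, named after their values were seen. Neither was called. Zfp36l3 averaged 0.114 CPM in WT and 0.0267 CPM in KO, and Zc3h12b 1.34 CPM in WT and 1.03 CPM in KO. The total of 4 calls became 7 without WT replicate 1, and 2 without WT replicate 2 or without KO replicate 1.

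Of 22 mRNAs known as targets of these regulators, 13 were higher and 3 lower by edgeR's test, with a median log2 fold change of 0.29. Of all genes tested, 12.0% were higher and 12.1% lower. Rel, an NF-kB subunit whose mRNA Regnase-1 cuts, was 158, 162.5 and 158 CPM in WT replicates 1, 2 and 3 and 290.5, 297 and 314 CPM in KO replicates 1, 2 and 3. The KO libraries were all far above WT, and the log2 fold change was 0.91 (SE 0.036, adjusted p = 1.56e-09 by edgeR). Il10, which carries 4 heptamers TATTTAT in its 3′ UTR, was 18.9, 20.4 and 20.3 CPM in WT replicates 1, 2 and 3 and 37.3, 36.7 and 39.1 CPM in KO replicates 1, 2 and 3, where the groups were again far apart and the difference was 0.93 (SE 0.050, adjusted p = 3.00e-08 by edgeR). The checkpoint receptor Ctla4 went from 410.3 ± 9.03 to 645 ± 8.93 CPM (0.65, edgeR adjusted p = 9.56e-09) and the activation marker Cd69 went from 218 ± 8.22 to 320.0 ± 5.70 CPM (0.55, edgeR adjusted p = 1.33e-07).

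Icos, the best known target of Roquin, went the other way. It was 257, 276 and 285 CPM in WT replicates 1, 2 and 3 and 236, 233 and 237.5 CPM in KO replicates 1, 2 and 3, and every KO library was below every WT library, with a difference of -0.21 (SE 0.039, adjusted p = 0.00152 by edgeR). Myc (-0.18, adjusted p = 0.00333) and Il2ra (-0.15, adjusted p = 0.00658) were the other targets that fell by edgeR's test. Roquin and Regnase-1 share further targets, named here after their values were seen: the NF-kB regulators Nfkbid (0.43, adjusted p = 1.15e-06) and Nfkbiz (0.36, adjusted p = 1.76e-06) and the receptor Tnfrsf4 (0.34, adjusted p = 5.74e-06) were higher. Tnf, which carries 8 of the heptamers and is the classical target of tristetraprolin, did not pass the test, at -0.11 (edgeR adjusted p = 0.128). Of the 22 mRNAs, 14 hold the heptamer. The counts do not separate synthesis from decay of an mRNA.

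**Figure D4:**
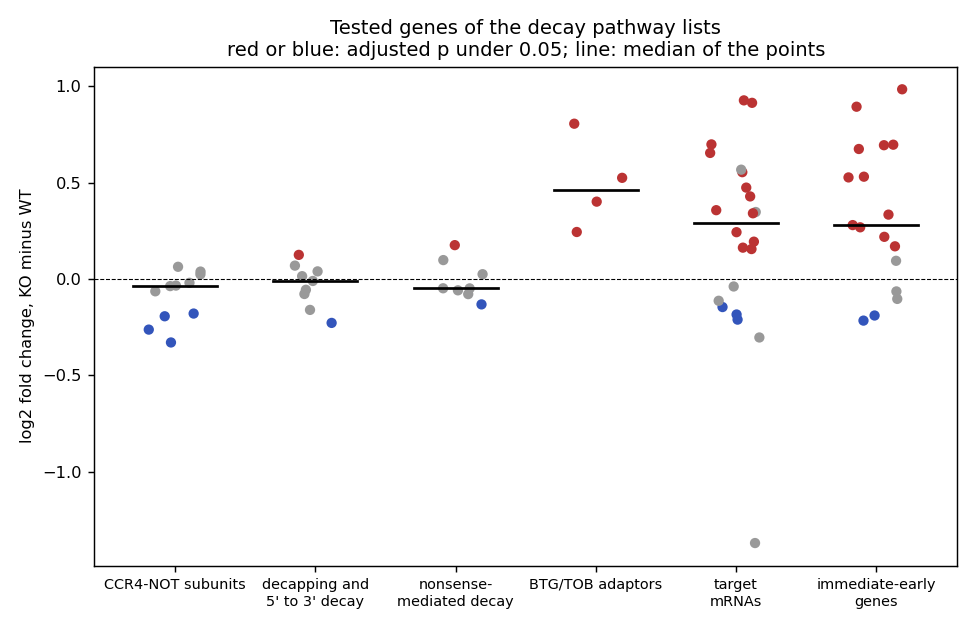
Log2 fold change (KO minus WT) of each tested gene, grouped by list, with genes past an adjusted p under 0.05 in red (higher) or blue (lower), others in gray, and a line at the median of each group. CCR4-NOT subunits have their median at -0.037, while BTG/TOB adaptors (0.46), target mRNAs (0.29) and immediate-early genes (0.28) lie above 0.

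Zfp36 and its relatives belong to the genes that cells switch on within minutes of a stimulus, so immediate-early genes were read beside them. Of 17 such genes, 12 were higher and 2 lower in KO by edgeR's test, against 12.0% and 12.1% of all genes tested. Their summed level was 9827.5 to 10583 CPM in WT and 12756 to 13174 CPM in KO. The orphan nuclear receptors rose, with Nr4a3 (0.89, adjusted p = 8.51e-10), Nr4a2 (0.98, adjusted p = 2.77e-08) and Nr4a1 (0.70, adjusted p = 5.44e-08), as did the transcription factor Klf6 (0.69, adjusted p = 7.90e-09). Fos (-0.22, adjusted p = 2.11e-04) and Egr3 (-0.19, adjusted p = 0.00317) fell. The part of this rise in the changes of Zc3h12a, Zfp36l1 and Btg1 was not tested.

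The 3 genes whose log2 CPM over the 6 libraries was most like that of Zc3h12a, by Pearson correlation among the 11075 genes whose log2 CPM averaged 1 or more, were Plekha7 (r = 0.9996), Per1 (r = 0.9993) and Fosl2 (r = 0.9992). Their log2 fold changes were 0.27, 1.05 and 1.41. Per1 is a circadian clock gene and Fosl2 an AP-1 subunit. As the 6 libraries fall into 2 groups, the difference between the groups sets most of such a correlation, and 182 genes had one above 0.99.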

How the data were processed

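The 9 genes and the lists were chosen with earlier results of these data known. The table that the authors deposited holds raw counts by gene symbol for 6 libraries (3 WT and 3 KO). The submitters' processing notes name HISAT2, DESeq2 and mm10, and the counting tool, annotation and strand setting are not given in the sources used here. Of the 32285 rows, 40 repeat a symbol, and the row with most counts kept the name. KO was compared with WT by edgeR 4.0.16 (R 4.3.3, TMM, filterByExpr, quasi-likelihood F-test with robust dispersions and the newer method) over 17307 genes with Benjamini-Hochberg adjustment, and calls were made at an adjusted p under 0.05. Standard errors derive from the F statistic. Replicates are separate libraries, not stated to be separate animals. The p values thus set the difference between groups against the spread between these libraries, which may not hold the spread between animals. Totals ranged from 133283969 to 209041812 counts and replicate pairs varied more than counting error, by a median ratio of 7.08 to 14.9. Named genes were the 9 members, Zfp335, the BTG/TOB adaptors, and up to 4 called genes in each direction with the smallest adjusted p in larger lists (average log2 CPM of at least 1). Positions and lengths are from GENCODE M21 (GRCm38, the same build as mm10). The alternatives comprised other scalings, DESeq2 1.42.0, voom of limma 3.58.1, the legacy method, other filters, counts divided by 4, removal of abundant gene families, a replicate block and leaving out each library. Some genes of the lists are not reported here by name.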

Additional observations from a re-analysis of the deposited data

How the results depend on the processing

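Each result was recomputed under 17 alternatives. The number of the 9 genes called was 3 or 4 in each, and Zc3h12a, Zfp36l1 and Btg1 stayed higher and called in all 17 (Btg1 from 0.17 to 0.25). Rc3h1 kept its sign (0.12 to 0.19) and lost its call without KO replicate 2 or 3. The sign of Zfp36 turned with library size only (-0.016), and that of Zc3h12d without KO replicate 2 (0.0018, range -0.044 to 0.0018 with 1 library left out), and neither gene was called under any alternative. Leaving out 1 library at a time gave 2740 to 4996 genes called over the whole table against 4170 (2740 without WT replicate 2), 7 to 18 against 8 for decay machinery, and 2 to 7 against 4 for other RNA-binding regulators. For the latter lists the cause was not tested. With a filter at 1 CPM in 3 libraries, which tests fewer genes, 572 genes passed the 1.5-fold cutoffs against 1203. The counts of target mRNAs (15 to 17), BTG/TOB adaptors (4), upstream regulators in both directions (5 to 8) and immediate-early genes (13 to 16) stayed within 1.5 times. With the replicate block, 4 of the 9 genes were called and 4227 genes in all. Deviations of same-numbered libraries correlated at 0.0082 to 0.033, under the 0.1 required to treat them as pairs, although 5 of the 6 libraries correlated best with their own number in the other group (WT replicate 2 did so with KO replicate 1). The log2 fold change of the weakly expressed Zc3h12c ranged from 0.00045 without WT replicate 1 to 0.21 without WT replicate 3.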
